A study of Rattus norvegicus with 9 samples.

Results

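Liver RNA of rats given Hong Shan Capsule (HSC) before total-body irradiation (TBI) was compared directly with liver RNA of rats irradiated alone. HSC is a herbal preparation given by mouth. The comparison rests on 6 of the 9 arrays of the series: 3 rats of the HSC + TBI group, dosed by stomach tube on each of 3 days and then exposed to 6.5 Gy from a 60Co source, and 3 rats of the TBI group, exposed to 6.5 Gy without the drug. The series text gives the HSC dose as 10 g/kg per day and the sample labels give 30 mg/kg per day. The other 3 rats were untreated controls, whose levels are given as the background. All were male Wistar rats, the liver was taken 24 h after exposure, and each rat had 1 one-colour Agilent array. Rats given HSC without radiation were not analysed here, so an effect of the drug on unexposed liver cannot be told apart from an effect on the response to radiation. A probe entered when the scanner software flagged it as well above background in each rat of 1 or both groups, and 25167 of the 41012 probes on the array did. They split into 22860 bright probes, above background on all 6 arrays, and 2307 dim probes, above background throughout only 1 group. The 12217 of them with a gene name covered 9530 genes. Levels are log2 intensities after quantile normalization, so a difference of 1 is a doubling of the signal, and levels of different probes were not compared.

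The liver holds hepatocytes, which make most plasma proteins and bile acids, beside Kupffer cells, the resident macrophages of the sinusoids, and circulating or resident lymphocytes. Ionising radiation kills lymphocytes quickly and sets off the p53 response in the surviving cells. Liver genes also follow the daily clock, feeding and the adrenal glucocorticoids. The tissue label was borne out by the hepatocyte genes: albumin (Alb) lay between 17.57 and 17.94 in all 9 rats, and all 24 hepatocyte genes of the list used here were bright. The share of probes above background was 63.6% to 69.5% on the TBI arrays against 58.7% to 60.5% on the HSC + TBI arrays and 56.6% to 59.3% on the control arrays, and the dimmest probe marked above background lay at 2.51 to 3.13 on the TBI arrays against 3.56 to 3.66 on the HSC + TBI arrays. The TBI arrays shared 1 slide and the HSC + TBI arrays lay on 2 others, so slide and group cannot be told apart.

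Among the genes called between the 2 irradiated groups, Ptprc, Itgb2, Cytip, Ccl2 and Ccl3 of leukocytes and chemokines were lower after HSC, and Zbtb16 and the clock gene Per2 were higher. limma called 198 probes, 0.787% of those tested, on an adjusted p under 0.05 (Benjamini-Hochberg) with a change of 1.5-fold or more. Of these, 145 were lower and 53 higher in HSC + TBI, or 0.576% and 0.211%, so 73.2% of the calls were lower, and 66.4% of the calls on bright probes. Among bright probes 71 were called lower (0.311%) and 36 higher (0.157%), together 0.468% of them. Among dim probes 74 were called lower (3.21%) and 17 higher (0.737%), together 3.94%. A dim probe passed the filter through only 1 group, and this filter favours a higher signal there. The dim count is therefore no measure of the response. The called probes had 81 gene names among them, and 116 had none. The labels do not say that the rats of a group were handled apart, and the p-values measure only the spread between these rats. The median difference over all tested probes was 0.06, over bright probes 0.07 and over dim probes −0.32.

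Among bright probes the share called was larger where the signal was weaker. With the 22860 bright probes in 4 equal classes of brightness, 36 were called lower and 16 higher in the dimmest class, 25 and 12 in the next, 9 and 5 in the next, and 1 and 3 in the brightest. The share called was 0.91%, 0.647%, 0.245% and 0.07% in these classes.

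**Figure D1:**
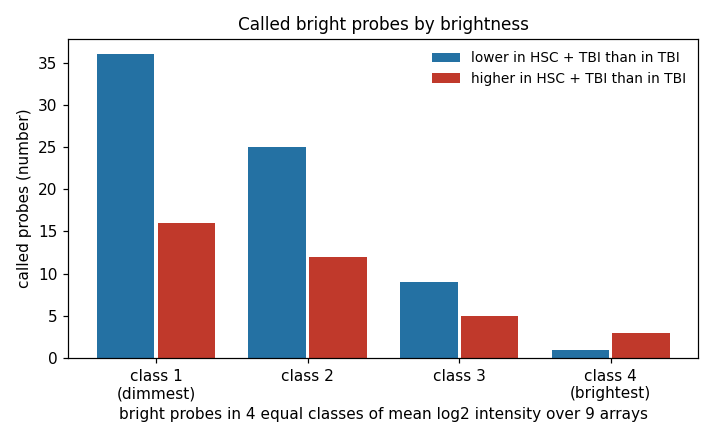
Number of called probes (y axis) among the bright probes in 4 equal classes of mean log2 intensity over the 9 arrays (x axis), lower (blue) or higher (red) in HSC + TBI than in TBI. The bars fall from 36 and 16 in the dimmest class to 1 and 3 in the brightest.

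How many probes were called depended on the scaling and on single rats. After a 75th percentile shift in place of quantiles 276 probes were called and 87.3% of them were lower, and after normexp background correction 9 were called and 44.4% were lower. Of the named genes, Zbtb16, Ugt2b1, Or2w6 and Ets2, an ETS family factor, were called after normexp correction, and the other calls given here were not. Without TBI 1 limma called 937 probes, without TBI 2 only 28, and without TBI 3 it called 602. Without HSC + TBI 1, 2 and 3 it called 43, 94 and 58 probes, and without control 1, 2 and 3, which enter the estimate of the spread, 110, 100 and 97. Of the bright calls 5 were lower and 8 higher without TBI 2, so the direction of the larger share turned there, while 61.5% to 80.9% of them were lower without any other rat. Of the 82 called probes with a gene name, 81 were still called without TBI 1, 73 without TBI 3 and 7 without TBI 2. Those called whichever of the 9 rats was left out were 7: the probes of Zbtb16, Elf2 and Or6b13 among bright probes, and those of Cpa3, Or51a10, Or7a38 and Or6k8 among dim ones. The dim ones passed the filter through only 1 group, and the filter was not applied again with a rat left out. That they stayed called is therefore no support for them.

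Among the called genes lower after HSC were Ptprc, Cytip and Itgb2 of leukocytes. Ptprc encodes CD45, the phosphatase on the surface of all nucleated blood cells, Itgb2 the beta chain of the leukocyte integrins, and Cytip a regulator of that integrin's grip. The called probe of Ptprc lay at 6.18, 6.03 and 6.03 in the 3 TBI rats and at 4.49, 4.45 and 4.04 in the 3 HSC + TBI rats, with the controls at 5.33, 6.07 and 5.43. The 2 irradiated groups did not overlap, and the difference was −1.75 ± 0.21 (SE; adjusted p = 0.0148), a 3.37-fold higher signal after TBI alone. This call was lost without TBI 2 (adjusted p = 0.0618) and kept without any other rat. All 3 tested probes of Ptprc had differences below 0, from −1.75 to −1.08, but the other 2, the brightest included, were not called. Itgb2 lay at 9.66, 10.27 and 10.12 after TBI and at 8.81, 9.14 and 8.86 after HSC + TBI, a difference of −1.08 ± 0.18 (adjusted p = 0.0437). Its controls, at 9.06, 9.32 and 9.07, lay near the HSC + TBI rats. Cytip lay at 6.44, 6.39 and 6.92 after TBI and at 4.96, 4.50 and 5.23 after HSC + TBI, a difference of −1.69 ± 0.24 (adjusted p = 0.0269), below the controls at 6.13, 6.67 and 6.22. Cytip was no longer called without TBI 2, HSC + TBI 1 or HSC + TBI 2 (adjusted p up to 0.106), and of the 9 fits that left out a rat Itgb2 was called only in those without TBI 1 and without TBI 3 (adjusted p up to 0.155 in the others).

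The DNA just before the Ptprc gene is shown because letters that fit the core of the ETS family, to which the blood cell factor PU.1 belongs, were common before the leukocyte genes. The sequence is the 250 bases before the start on the minus strand, chr13:52259747-52259996 of GRCr8, from RefSeq, read 5′ to 3′, with each GGAAGT or its reverse complement in capitals.
Ptprc: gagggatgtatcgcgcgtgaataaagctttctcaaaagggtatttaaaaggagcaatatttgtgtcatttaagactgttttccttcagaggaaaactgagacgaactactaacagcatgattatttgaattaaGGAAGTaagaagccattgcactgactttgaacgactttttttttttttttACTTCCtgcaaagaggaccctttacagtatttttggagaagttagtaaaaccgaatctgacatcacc
The 2 matches begin 117 and 67 bases before the start. GGAAGT was found on either strand in 8 of the 13 leukocyte genes for which an upstream sequence was at hand (Cd37, Cd48, Cytip, Hcls1, Laptm5, Ptpn6, Ptprc and Vav1), and in 19.2% of all 33469 such sequences. The match is a description of these letters, not of a bound site.

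The 23 tested genes of the leukocyte list gave 2 calls, Cytip and Itgb2, both lower, with Ptprc entered by its brightest probe. Over all tested probes 0.787% were called. Of the 23 differences 22 were below 0, with a median of −1.19 against 0.02 over the 9530 named genes. In the lower direction 20 members had an unadjusted p under 0.05, where 7.89% of all tested probes had, against 8.37% in the higher direction. Among its 22 bright members 21 differences were below 0, with a median of −1.16. The next member by p was Coro1a, an actin-binding protein of blood cells, at 8.93, 9.80 and 9.43 after TBI and at 8.16, 8.23 and 8.18 after HSC + TBI (difference −1.19, adjusted p = 0.0572), with the controls at 10.37, 10.84 and 10.83. In bulk tissue, fewer cells of a type and less RNA per cell cannot be told apart. The mean level of the 23 genes was 8.04, 9.07 and 8.88 in TBI 1, 2 and 3 and 7.48, 7.53 and 7.61 in the HSC + TBI rats, so the groups did not overlap but TBI 1 lay nearer to the HSC + TBI rats than to TBI 2. The controls lay at 8.13, 8.96 and 8.69. How many members were called turned on single rats: 15 without TBI 1, 2 without TBI 3 and none without TBI 2, without HSC + TBI 1 or without HSC + TBI 2, and 1 without HSC + TBI 3 or any 1 of the controls. The median stayed below 0 under all 25 alternatives, from −1.52 without TBI 1 to −0.66 after normexp correction.

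**Figure D2:**
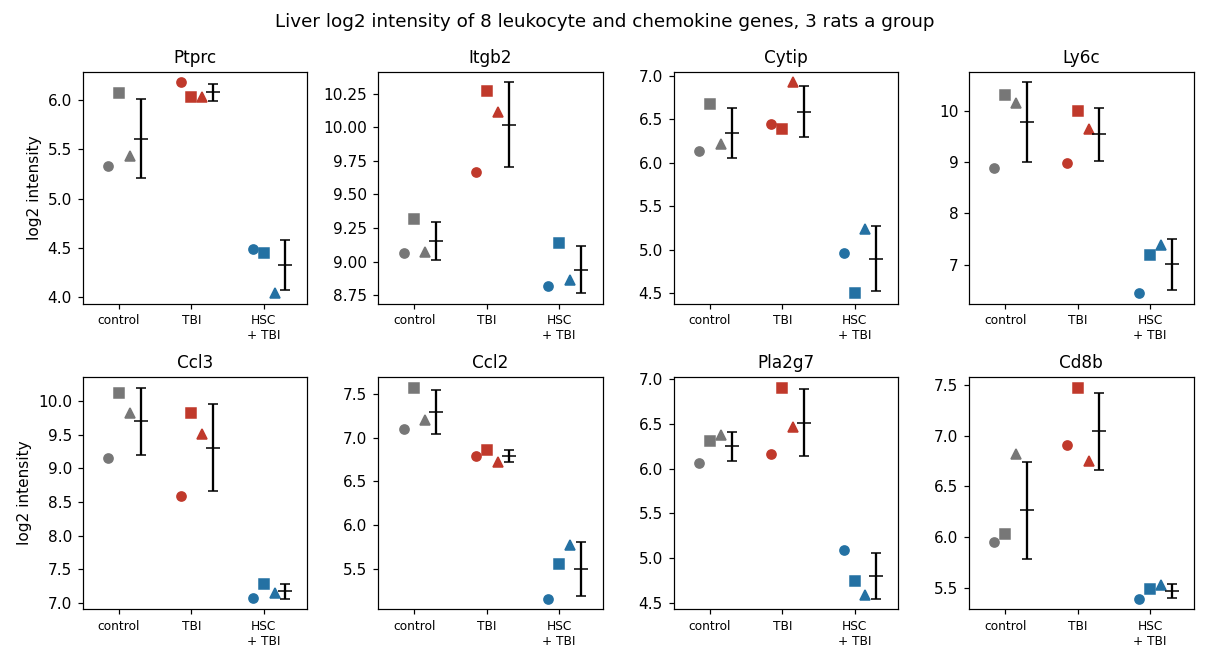
Log2 intensity (y axis) of 8 called leukocyte and chemokine genes in the 3 groups (x axis), 1 point a rat (circle, square and triangle for rats 1, 2 and 3) with the mean and SD of each group as a bar. In each panel the 3 HSC + TBI points lie below the 3 TBI points, for Ptprc at 4.04 to 4.49 against 6.03 to 6.18.

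Single genes of monocytes and macrophages were called lower as well. Ly6c, a surface marker of circulating monocytes and some lymphocytes, lay at 8.99, 10.00 and 9.64 after TBI and at 6.44, 7.19 and 7.38 after HSC + TBI. This was the largest lower difference among the bright named calls, −2.54 ± 0.42 (adjusted p = 0.0448), or 5.81-fold, and the controls at 8.89, 10.30 and 10.15 overlapped the TBI rats. Of the fits that left out a rat, Ly6c was called only in those without control 1 and without TBI 1, and its adjusted p was up to 0.149 in the others. Pla2g7, the secreted enzyme that breaks down platelet-activating factor and is made by macrophages, lay at 6.16, 6.90 and 6.46 after TBI and at 5.09, 4.75 and 4.59 after HSC + TBI (difference −1.70 ± 0.21, adjusted p = 0.0152). It was the 1 called gene of 22 tested in the Kupffer cell and macrophage list, and was lost without TBI 2 or HSC + TBI 3 (adjusted p up to 0.0635). All 22 genes of this list were bright, and 0.468% of all bright probes were called. In the list 21 differences were below 0 with a median of −0.97. An unadjusted p under 0.05 in the lower direction was found for 16, where 7.89% of all tested probes had one. Clec4f, the lectin that marks Kupffer cells in rodents, lay at 15.14, 16.04 and 15.55 after TBI and 14.65, 14.69 and 14.81 after HSC + TBI (difference −0.86, adjusted p = 0.124). Cd68, a lysosomal protein of macrophages, differed by −1.10 (adjusted p = 0.107) and Folr2, a folate receptor of tissue macrophages, by −1.30 (adjusted p = 0.0868). Not every member was low: Cd163, the haemoglobin scavenger receptor, differed by −0.14 and Cd14, the endotoxin co-receptor, by 0.12. The mean of the 22 genes was 10.44, 11.32 and 11.11 in TBI 1, 2 and 3, 10.05, 10.09 and 10.10 in the HSC + TBI rats and 10.25, 10.87 and 10.67 in the controls. Without TBI 1, 15 members were called, without TBI 2 or without HSC + TBI 3 none, and without any other rat 1. In the monocyte list Ly6c was the 1 call among 8 tested genes, and 7 differences were below 0. Without TBI 1, 4 of the 8 were called, and without any rat other than TBI 1 or control 1 none.

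The class II antigen-presentation genes had the lowest median of the lists used here and no call, and the TBI rats differed among themselves. These genes encode the surface molecules with which B cells, dendritic cells and macrophages show peptides to helper T cells, and Cd74 is their chaperone. Cd74 lay at 10.83, 15.27 and 15.37 in TBI 1, 2 and 3 and at 10.43, 10.48 and 10.31 in the HSC + TBI rats, a mean difference of −3.42 (adjusted p = 0.167). RT1-Da, a rat class II alpha chain, had means of 12.4 ± 2.64 (SD) after TBI and 8.94 ± 0.05 after HSC + TBI (difference −3.44, adjusted p = 0.167). RT1-Db1 and RT1-Bb, both beta chains, differed by −3.54 (adjusted p = 0.162) and −3.39 (adjusted p = 0.172) in the same way. TBI 2 and TBI 3 thus lay over 3 log2 units above both TBI 1 and the HSC + TBI rats, with the controls between, Cd74 at 11.82, 12.41 and 12.57. All 3 HSC + TBI rats lay below all 3 controls and below TBI 1 for Cd74, RT1-Da, RT1-Db1 and RT1-Bb. Of the 9 tested genes of the dendritic cell and class II list, 9 differences were below 0, 8 with an unadjusted p under 0.05 and a median of −2.03. Of these genes 7 were bright, with a median of −3.39, and 2 were dim and passed the filter through only 1 group. Without TBI 1, 7 of the 9 were called, and without any other single rat none. The transactivator Ciita was not above background in either group.

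The upstream sequence of RT1-Da is shown for its Y box, the ATTGG element that class II promoters are known for. It is chr20:4515165-4515414 of GRCr8 on the plus strand, the 250 bases before the start, with ATTGG in capitals.
RT1-Da: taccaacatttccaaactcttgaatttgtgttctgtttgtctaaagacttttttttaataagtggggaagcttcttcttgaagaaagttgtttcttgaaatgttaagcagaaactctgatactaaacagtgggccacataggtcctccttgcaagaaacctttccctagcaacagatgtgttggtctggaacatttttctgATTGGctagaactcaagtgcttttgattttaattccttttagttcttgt
The match begins 49 bases before the start. ATTGG on either strand was found before 5 of the 8 tested class II and dendritic cell genes with a sequence at hand and before 34.0% of all genes' starts, so this short word alone is common.

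The T cell and neutrophil lists gave 1 call each, and the B cell and cytotoxic lists none. Over all tested probes 0.787% were called. Cd8b, a chain of the co-receptor of cytotoxic T cells, lay at 6.91, 7.48 and 6.75 after TBI and at 5.39, 5.49 and 5.53 after HSC + TBI (difference −1.58 ± 0.26, adjusted p = 0.0433), and was the 1 called gene of 10 tested in the T cell list, where 3 were called without TBI 1. Leaving out control 1, control 2, TBI 2 or whichever HSC + TBI rat ended the call (adjusted p up to 0.149). The controls of Cd8b, at 5.95, 6.03 and 6.82, lay above the HSC + TBI rats and overlapped the TBI rats. None of the 12 genes of the natural killer and cytotoxic list was called. All 12 differences were below 0 with a median of −1.27, and 8 had an unadjusted p under 0.05. The 9 bright members had a median of −1.31. The other 3 were dim and passed the filter through only 1 group, so their sign is no measure of the response. Without TBI 1, 5 of the 12 were called. Of the granzymes and perforin, the killing proteins of these cells, Gzmm differed by −1.62 (adjusted p = 0.163), Gzmk by −1.86 (adjusted p = 0.181) and Prf1 by −1.31 (adjusted p = 0.191). In the B cell list 4 of 5 differences were below 0, 3 of 3 among bright members, and none was called. Cd22, a B cell lectin, differed by −0.69 (adjusted p = 0.114), and 3 members were called without TBI 1. In the neutrophil list 1 of 11 was called, the dim Trem1, an amplifying receptor of myeloid cells. Of its differences 7 were below 0 with a median of −0.13, and of the 7 bright ones 4 were below 0. Trem1 was called without control 1 or TBI 1 and lost without any other rat. S100a8 and S100a9, the abundant neutrophil calcium-binding proteins, differed by −0.81 and −1.14 (adjusted p = 0.204 and 0.229). Endothelial, stellate and bile duct lists had medians of −0.13, −0.18 and −0.16 and no calls, but the stellate median was 0.09 without TBI 3 and 0.02 with array weights, and the bile duct median 0.05 without HSC + TBI 1.

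**Figure D3:**
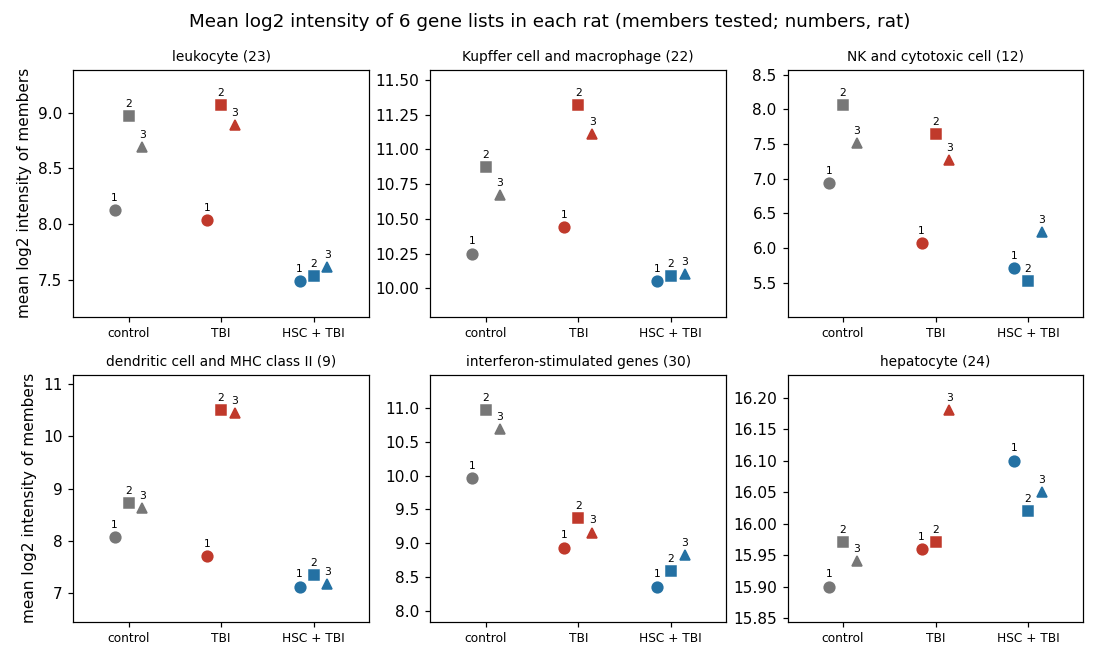
Mean log2 intensity (y axis) over the tested members of 6 gene lists in each rat, by group (x axis), with the rat number beside each point. The class II list lies at 10.50 and 10.44 in TBI 2 and 3 but at 7.71 in TBI 1, near the HSC + TBI rats at 7.13 to 7.35, while the hepatocyte list lies between 15.90 and 16.18 in all 9 rats.

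Ccl2 and Ccl3 of the chemokines were called lower after HSC. These proteins, which draw monocytes and other leukocytes into tissue, were the 2 called genes among the 24 tested chemokines and receptors. Over all tested probes 0.787% were called. Ccl3 lay at 8.58, 9.83 and 9.51 after TBI and at 7.07, 7.28 and 7.15 after HSC + TBI (difference −2.14 ± 0.34, adjusted p = 0.0404). Ccl2 lay at 6.78, 6.86 and 6.72 after TBI and at 5.16, 5.55 and 5.77 after HSC + TBI (difference −1.29 ± 0.18, adjusted p = 0.0269). Both sat below the controls too, which were at 9.15, 10.13 and 9.83 for Ccl3 and at 7.10, 7.57 and 7.21 for Ccl2. Ccl2 was lost without control 3, TBI 2, HSC + TBI 1 or HSC + TBI 2 (adjusted p up to 0.091), and Ccl3 without control 2, control 3, TBI 2 or whichever HSC + TBI rat was left out (adjusted p up to 0.139). Of the 24 differences 19 were below 0, with a median of −0.84. Among the 21 bright members 16 were below 0, with a median of −0.95, and the 3 dim ones passed the filter through only 1 group. Of the 24 members 10 were called without TBI 1, none without control 3, TBI 2, HSC + TBI 1 or HSC + TBI 2, and 1 without control 2 or HSC + TBI 3. Cxcl12, the stromal chemokine of the liver, differed by 0.28. The inflammatory cytokine list had no call among 19 genes and 18 differences below 0, and 7 were called without TBI 1. Il1b, the cytokine of activated macrophages, lay at 9.73, 12.09 and 11.90 after TBI and 9.27, 9.07 and 9.13 after HSC + TBI (difference −2.08, adjusted p = 0.124), and Tlr2, a receptor for bacterial lipoproteins, differed by −2.04 (adjusted p = 0.0673). Again TBI 1 was the low one of its group. The 30 interferon-stimulated genes had a median of −0.48, 29 differences below 0 and no call, led by Gbp2, a guanylate-binding protein, at −1.72 (adjusted p = 0.133), while Stat2, a signal carrier of interferon receptors, differed by 0.44 (adjusted p = 0.133). Without TBI 1, 4 of the 30 were called.

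**Figure D4:**
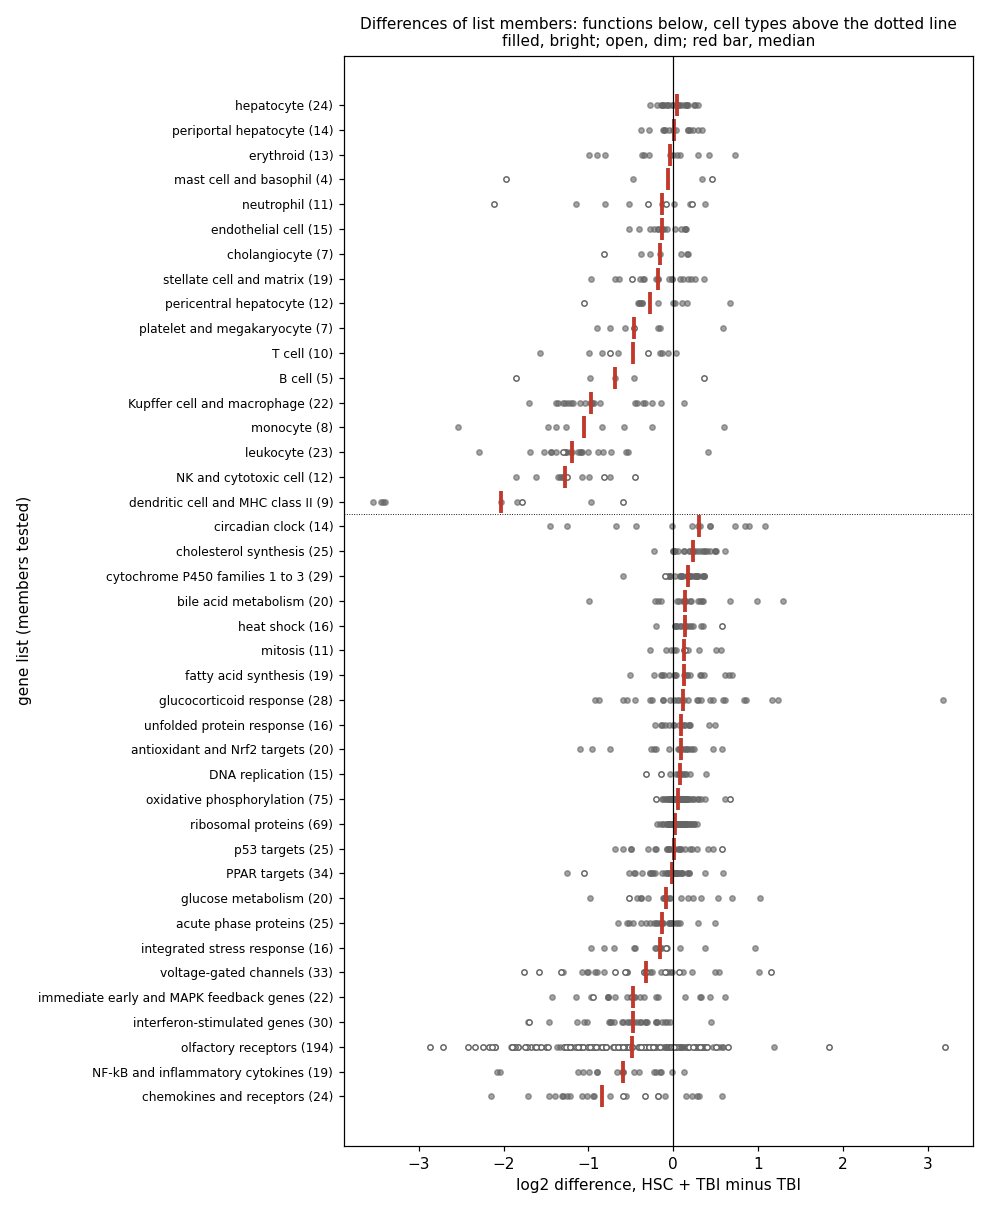
Log2 difference, HSC + TBI minus TBI (x axis), of the tested members of each gene list (y axis, number of members in brackets), with bright members filled, dim members open and the median as a red bar, cell types above and functions below the dotted line. The class II, cytotoxic, leukocyte, monocyte, macrophage and chemokine lists have medians from −2.03 to −0.84, and the hepatocyte, ribosomal and respiratory chain lists lie within 0.06 of 0.

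The largest higher difference among the bright named calls was that of Zbtb16, which encodes PLZF, a zinc-finger repressor that glucocorticoids are known to induce. It lay at 4.86, 5.22 and 3.80 in the TBI rats and at 8.24, 7.64 and 7.52 in the HSC + TBI rats, with the controls at 6.69, 7.32 and 7.06. The irradiated groups were more than 2 log2 units apart at their nearest points, and the difference was 3.18 ± 0.36 (adjusted p = 0.0125), a 9.04-fold higher signal. A second probe of Zbtb16 was called as well, at 2.03, and in 4 of the 9 fits that left out a rat. The first probe stayed called without any single rat (adjusted p from 0.00907 to 0.0492) and after normexp correction, where its difference was 1.43. TBI lay 2.40 below control for this gene (adjusted p = 0.0081) and HSC + TBI 0.78 above (adjusted p = 0.284). Zbtb16 was the 1 call among 28 tested genes of the glucocorticoid list, all bright, where 0.468% of all bright probes were called. The median difference of the list was 0.11. Without TBI 1, 5 were called, 3 higher and 2 lower. Fkbp5, a chaperone partner of the glucocorticoid receptor, lay at 9.77, 9.56 and 9.08 after TBI and at 10.52, 10.44 and 10.02 after HSC + TBI (difference 0.86, adjusted p = 0.103). Of the 28 differences 10 were below 0. Mt2A, a metallothionein, differed by 1.16, Tsc22d3, which encodes GILZ, by 0.12, Klf9 by 0.10 and Tat, tyrosine aminotransferase, by −0.12, while Sgk1, a kinase of ion transport, differed by −0.92 (adjusted p = 0.163) and Cebpd by −0.88 (adjusted p = 0.151).

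Per2 was the called gene of the circadian clock. In this clock Bmal1 pairs with Clock or Npas2 to switch on the Per and Cry genes, whose products shut that pair down, and Dbp and Tef are output factors that rise with Per2. Per2 lay at 7.52, 7.64 and 7.86 after TBI and at 8.97, 8.88 and 8.39 after HSC + TBI, with the controls at 8.35, 8.54 and 8.50 (difference 1.08 ± 0.17, adjusted p = 0.0413). Of the fits that left out a rat, Per2 was called only in those without TBI 1, TBI 3 or HSC + TBI 3, and its adjusted p was up to 0.14 in the others. Bmal1 lay at 8.31, 7.46 and 8.55 after TBI and at 6.64, 6.49 and 6.84 after HSC + TBI, with the controls lower still at 4.85, 5.15 and 5.47 (difference −1.45, adjusted p = 0.0653). Npas2 differed by −1.25 (adjusted p = 0.111), Dbp by 0.85 (adjusted p = 0.107), Tef by 0.73 (adjusted p = 0.104) and Per3 by 0.90 (adjusted p = 0.147). For Bmal1, Npas2, Dbp, Tef and Per3 the 2 irradiated groups did not overlap, as was so for 8.77% of all tested probes in the lower and 12.7% in the higher direction. Dbp lay at 13.32, 13.32 and 13.33 in the controls, at 11.13, 11.87 and 11.22 after TBI and at 12.51, 12.20 and 12.04 after HSC + TBI, so the HSC + TBI rats lay between. Of the 14 tested clock genes, all bright, 1 was called, where 0.468% of all bright probes were. An unadjusted p under 0.05 was found for 9 (6 higher, 3 lower), where 8.37% of all tested probes had one in the higher and 7.89% in the lower direction. The median was 0.30. Without TBI 2 the 1 call in the list was a lower one. Without any 1 of the controls, HSC + TBI 1 or HSC + TBI 2 the list had no call. Clock itself differed by −0.02.

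The upstream sequences of Per2 and Bmal1 are shown because these genes, which the clock drives in opposite phase, differed in opposite directions. The Per2 sequence is chr9:99496994-99497243 of GRCr8 on the minus strand, with the D-box TTATGNAA in capitals, to which Dbp and Tef bind. The Bmal1 sequence is chr1:176766078-176766327 on the plus strand, with the element AGGTCA of the ROR and REV-ERB receptors in capitals.
Per2: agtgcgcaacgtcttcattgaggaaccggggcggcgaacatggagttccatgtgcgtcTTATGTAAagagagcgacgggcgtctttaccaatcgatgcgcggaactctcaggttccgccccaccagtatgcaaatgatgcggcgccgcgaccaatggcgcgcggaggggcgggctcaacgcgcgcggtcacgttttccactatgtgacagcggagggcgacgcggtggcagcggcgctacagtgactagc
Bmal1: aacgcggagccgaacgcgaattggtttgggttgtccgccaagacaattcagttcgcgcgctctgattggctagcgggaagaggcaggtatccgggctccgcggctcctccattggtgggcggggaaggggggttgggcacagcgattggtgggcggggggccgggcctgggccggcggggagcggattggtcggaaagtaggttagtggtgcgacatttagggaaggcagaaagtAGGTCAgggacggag
The D-box begins 192 bases before the Per2 start and was found before 3.28% of all genes' starts, and among 13 clock genes with a sequence at hand only before Per2. AGGTCA begins 15 bases before the Bmal1 start and was found before 14.1% of all starts, and among the clock genes before Bmal1 and Nr1d2. The E-box CACGTG, the site of the Bmal1 pair, was found before Bhlhe40, Nr1d1 and Tef among them and before 5.59% of all starts. Both strands were searched.

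The remaining bright genes called higher were of mixed function. Abcg8, which with Abcg5 forms the pump that sends cholesterol into bile, lay at 4.34, 4.33 and 4.20 after TBI and at 5.28, 5.14 and 5.43 after HSC + TBI (difference 0.99 ± 0.14, adjusted p = 0.0269), with the controls at 5.63, 5.65 and 5.28. It was lost without TBI 2, HSC + TBI 1 or HSC + TBI 3 (adjusted p up to 0.118). Its partner gene Abcg5 overlapped between the groups and differed by 0.33. In the bile acid list Abcg8 was the 1 call among 20 genes, all bright, where 0.468% of all bright probes were called, and 16 differences were above 0. Nr0b2, the nuclear receptor SHP that restrains bile acid synthesis, differed by 1.29 (adjusted p = 0.167) and Cyp7b1, an oxysterol hydroxylase, by −0.995 (adjusted p = 0.133). Lama3, a laminin chain of basement membranes, lay at 5.21, 5.11 and 5.29 after TBI and at 6.16, 6.22 and 6.37 after HSC + TBI (difference 1.05 ± 0.12, adjusted p = 0.0122), above the controls at 5.63, 5.50 and 5.40. It was lost only without TBI 2 (adjusted p = 0.0525). Ugt2b1, a glucuronidation enzyme and the brightest of the named genes called higher, lay at 13.37, 13.29 and 13.16 after TBI and at 14.09, 14.34 and 13.98 after HSC + TBI (difference 0.86, adjusted p = 0.0408), also above the controls at 13.36, 13.14 and 13.09. Rhobtb1, an atypical GTPase family member, differed by 1.32 (adjusted p = 0.0448), and Ptgfr, the prostaglandin F receptor, by 0.90 (adjusted p = 0.0426). Against the controls the HSC + TBI means of Rhobtb1 and Ptgfr differed by −0.07 and 0.11. Ugt2b1, Rhobtb1 and Ptgfr were each called in only 2 of the 9 fits that left out a rat, those without TBI 1 and without TBI 3, with an adjusted p of up to 0.155 in the others. Zfp879, a zinc-finger gene, differed by 1.15, and Amy2a3, Nacc2 and Stbd1 by 0.81, 0.76 and 0.76, at adjusted p from 0.0414 to 0.0493.

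**Figure D5:**
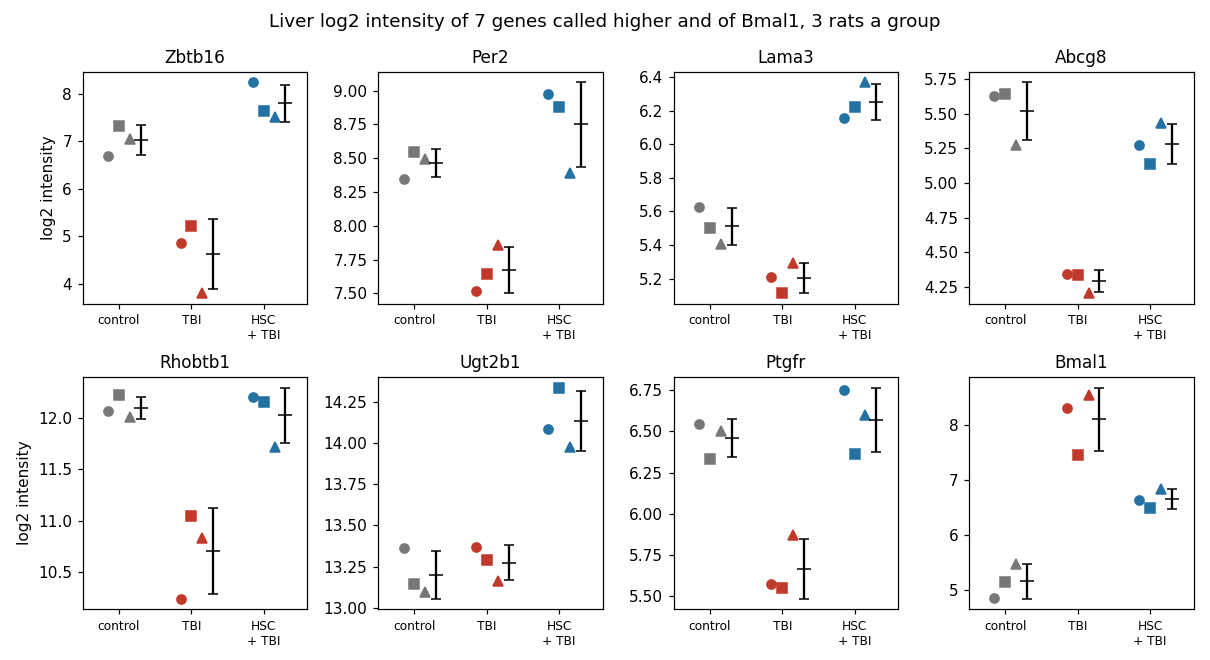
Log2 intensity (y axis) of 7 genes called higher in HSC + TBI and of the uncalled clock gene Bmal1 in the 3 groups (x axis), 1 point a rat (circle, square and triangle for rats 1, 2 and 3) with the mean and SD of each group as a bar. Zbtb16 lies at 3.80 to 5.22 after TBI and at 7.52 to 8.24 after HSC + TBI, and Bmal1 at 7.46 to 8.55 and 6.49 to 6.84.

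Several of the largest lower differences among the bright named calls were in genes known from other tissues than liver. Or2w6, an olfactory receptor, lay at 6.86, 6.49 and 6.48 after TBI, at 4.72, 5.23 and 5.15 after HSC + TBI and at 4.74, 5.17 and 4.74 in controls (difference −1.58 ± 0.19, adjusted p = 0.0149). Cryaa, a lens crystallin, lay at 5.89, 5.90 and 5.76 after TBI, at 4.35, 3.95 and 4.72 after HSC + TBI and at 4.32, 4.52 and 4.30 in controls (difference −1.51, adjusted p = 0.0152). Ptprn2, a protein of secretory granules in neurons and endocrine cells, lay at 7.11, 7.01 and 6.92 after TBI, at 5.88, 5.70 and 5.75 after HSC + TBI and at 6.03, 5.30 and 5.77 in controls (difference −1.24, adjusted p = 0.0279). For Or2w6, Cryaa and Ptprn2 the TBI rats lay above both other groups. Or2w6 and Cryaa were both lost without TBI 2 or HSC + TBI 1 (adjusted p up to 0.0685), and Ptprn2 without control 3, TBI 2 or whichever HSC + TBI rat was left out (adjusted p up to 0.108). Slc7a3l1, named after a cationic amino acid transporter, and Fam81a differed by −1.41 and −1.22 (adjusted p = 0.0451 and 0.0476), with control means of 4.64 and 4.48 against 6.23 and 5.66 in TBI. Of the 1089 olfactory receptor genes with a probe 194 were tested, 111 bright and 83 dim. Of the bright ones 4 were called lower and none higher, where 0.468% of all bright probes and 0.91% of their dimmest class were called. Among them 75 differences were below 0 with a median of −0.21 against 0.07 over all bright probes. Of the dim ones, which passed the filter through only 1 group, 7 were called lower and 1 higher, where 3.94% of all dim probes were called. Leaving out TBI 2 or TBI 3 turned the 12 calls into 4 or 27, and leaving out HSC + TBI 1 or HSC + TBI 2 into 6 or 17. The 1 higher call was the dim Or51a10. Members of this family share sequence, so a probe may pick up a relative. Some calls rested on 1 of 2 probes of a gene: the called probes of Tmem252, Nfkb2 and Mmp16 differed by −1.45, −1.21 and −0.97 and the uncalled ones by 0.18, −0.40 and 0.26. For Elf2 1 of 3 probes was called, at −1.17, and the other 2 differed by −0.05 and −0.02. The mean over the 194 olfactory receptors was 5.45, 5.07 and 5.02 in TBI 1, 2 and 3, 4.51, 4.83 and 4.56 in the HSC + TBI rats and 4.34, 4.46 and 4.36 in the controls. This mean takes in the 83 dim members, 72 of them with a difference below 0, so it is no measure of the response. Summed unlogged signals of the 194 overlapped, at 29070, 21740 and 18840 in TBI and 20660, 24350 and 22190 in HSC + TBI. The TBI arrays also had the larger share of probes above background, 63.6%, 66.3% and 69.5% in TBI 1, 2 and 3. The part of that share in these values was not tested.

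Dim probes gave only bounds where every array of a group was dim. Prr5l, a regulator of the TOR kinase complex, was at least 4.47-fold higher in TBI than in HSC + TBI (means of 5.81 ± 0.47 and 3.57 ± 0.15, SD), although the second probe of the gene differed by −0.74 and was not called. Or51e1, an olfactory receptor also known outside the nose, was at least 4.07-fold higher in TBI, the transcription factor Zscan10 at least 3.11-fold, Adcy7, an adenylate cyclase, at least 3.04-fold and the semaphorin receptor Plxnb3 at least 3.02-fold. In the other direction Or51a10 was at least 4.48-fold higher in HSC + TBI, where it lay at 5.65, 4.64 and 4.66 against 1.77, 1.61 and 1.96 in TBI and 5.02, 4.84 and 5.48 in controls. Prokr2, a prokineticin receptor, was at least 2.20-fold higher. Of the 198 called probes 63 were dim on all HSC + TBI arrays, out of 731 such tested probes, and 4 on all TBI arrays, out of 4. These probes passed the filter only through the other group, so the counts are no measure of the direction of the response. Cpa3, the carboxypeptidase of mast cells, was dim on all HSC + TBI arrays, at 1.49, 1.89 and 1.38, against 3.73, 3.64 and 3.29 in TBI and 4.32, 4.26 and 4.24 in controls. It was called lower but gave no fold bound, since the TBI level was itself no higher than the weakest signal marked above background on the HSC + TBI arrays. Of the other mast cell genes, Tpsab1, a tryptase, differed by 0.34, Hdc, which makes histamine, by −0.48 and Gata2 by 0.45, and none was called. Kit, Ms4a2, Cma1 and Tpsb2 were not above background in either group.

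Several large lists of liver and housekeeping functions gave no call. None of the 24 hepatocyte genes, 25 p53 targets, 25 cholesterol synthesis genes, 69 ribosomal protein genes or 75 respiratory chain genes was called. Over all tested probes 0.787% were called, and 0.07% of the brightest class of bright probes. At such shares lists of this size could have no call without differing from other probes. The median over p53 targets was 0.01, and between −0.05 and 0.06 with a rat left out, while these genes lay a median of 0.96 above control after TBI and 0.91 above control after HSC + TBI. The differences of these transcripts of the radiation response ran from −0.68 for Btg2, an antiproliferative gene, to 0.58 for Polk, a repair polymerase that was dim. Replication and mitosis lists had no calls among 15 and 11 genes, with medians of 0.08 and 0.12, but that of the mitosis list was −0.12 without HSC + TBI 3 and −0.06 after a 75th percentile shift. Cholesterol synthesis genes had a median of 0.23, and 22 of 25 differences were above 0, led by Hmgcs1 at 0.61 (adjusted p = 0.415), but the median was −0.03 without TBI 1. Drug-metabolising cytochromes of families 1 to 3 had a median of 0.17 over 29 genes and no call.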

How the data were processed

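Livers of 9 male rats, 3 per group by the sample titles, were measured on 1 one-colour array each. Per the file headers the authors scanned the spots with Agilent Feature Extraction 10.7, which gave the deposited intensity values, background intensities and flags. The authors also deposited log2 values after quantile normalization, used here as an alternative (median absolute difference from the values used here 0.029 to 0.032 per array, on the log2 scale).

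Spots marked as outliers were left out (84 to 115 of 43379 per array; none was saturated). The processed signals, with 1 as the lowest value allowed, were converted to log2 and quantile-normalized across all 9 arrays, and replicate spots of a probe were then averaged. A probe was above background on an array when over 0.5 of its spots carried the flag for well above background. limma 3.58.1 in R 4.3.3 (lmFit and eBayes) fitted the 3 group means over 9 arrays and gave HSC + TBI minus TBI. Calls needed an adjusted p under 0.05 (Benjamini-Hochberg, over all tested probes) and a 1.5-fold change or more. The fit was also run on simulated data, but with another spread than that of these arrays, so that run does not measure its errors here. The 3 arrays per group limit the precision. Names came from RefSeq genes of GRCr8 by accession, for 16968 of the 41012 probes. A list used the brightest tested probe of each gene, and described its members by counts and medians. Bright and dim members were counted together unless given apart, and a dim member passed the filter through only 1 group. The lowest value for a dim group was, per array, the higher of its weakest signal above background and the probe's own. Named were the 12 called bright named probes with the largest differences in each direction and no overlap, 1 per gene, called list members, 5 dim called probes per direction by their bound, the members of a list with the smallest p up to 3 where under 3 were called, defining markers, and genes whose probes disagreed; other genes were named after their values were seen. The comparison, lists and alternatives were chosen with earlier results of these data known. The alternatives were other normalizations, filters, fits and tests, and each rat left out in turn. Some called genes are not reported here.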

Additional observations from a re-analysis of the deposited data

How the results depend on the processing

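The number of called probes (198 in all, 107 bright and 91 dim) was within 1.5 times of that with the authors' values, with signal above background required in any of the 3 groups, with outlier spots kept and with no minimum fold. After a 75th percentile shift 146 dim probes were called. Normexp gave 9 in all, 9 bright and 0 dim. With no filter 109 in all and 39 bright were called, and with bright probes alone 45 in all and 45 bright, which leaves no dim count. The fit on 6 arrays gave 66, 26 and 40, and normalization and fit on 6 arrays 58, 23 and 35 (all, bright and dim). Array weights gave 362 in all and 227 bright. The methods' t-test gave 1348, 963 and 385 at an unadjusted threshold, and 2, 0 and 2 after Benjamini-Hochberg adjustment. Slide as a random block gave 2234, 1605 and 629, with a correlation within slides of −0.329 and slides that each held 1 group. When rats were left out one by one the counts ran from 28 to 937 in all, 13 to 763 bright and 15 to 183 dim. The replicate numbers were not taken to pair the rats: same-numbered rats correlated at −0.143, −0.0452 and −0.0705 between TBI and HSC + TBI, at 0.188, 0.111 and 0.0936 between control and TBI, and at −0.00136, 0.0158 and 0.0181 between control and HSC + TBI. The replicate block gave 93, 50 and 43. The causes were not tested.

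The alternatives were run for 187 values of named probes, not for every list member given by value. None of these changed sign under the alternatives that kept all rats, and with a rat left out 1 did, that of the uncalled Cldn4 (0.17, from −0.0783 without TBI 2 to 0.40 without TBI 3). With 3 rats a group, weak signals near background limit the precision of the dim probes.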

Other observations

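The voltage-gated channel list, picked by gene symbol, also took in potassium channels of other kinds. It had 2 calls among 33 tested genes, both among its 11 dim members, where 3.94% of all dim probes were called. Its median was −0.33, and 0.01 with no filter on dim probes. Kcnk18, a potassium channel, lay at 3.46, 3.25 and 2.89 in TBI rats and was not well above background in any HSC + TBI rat (called lower). These TBI levels were below the weakest signals marked above background on the HSC + TBI arrays (3.56 to 3.66), so Kcnk18 gave no fold bound. Kcnd2, another potassium channel, lay at 2.76, 2.69 and 3.04 after TBI, where 1 array was above background, and at 3.95, 4.08 and 3.93 after HSC + TBI (called higher). The 2 calls became 6 without TBI 1, 4 without TBI 3, 1 without control 2, HSC + TBI 1 or HSC + TBI 2, and none without TBI 2 or HSC + TBI 3.

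The next lists gave no call, where 0.787% of all tested probes were called. Of the 22 immediate early genes, which cells switch on within minutes of a stimulus, 17 differences were below 0 with a median of −0.47, and 2 were called without TBI 1 and 1 without TBI 3. Nr4a1, a nuclear receptor of this class, lay at 11.08, 12.57 and 12.35 after TBI and at 11.80, 9.72 and 10.18 after HSC + TBI (difference −1.43, adjusted p = 0.34), so the groups overlapped. Of the 7 platelet genes 6 were below 0, with Pf4, platelet factor 4, at −0.89 (adjusted p = 0.181), and 2 were called without TBI 1. Of the 16 genes of the integrated stress response 13 were below 0, with a median of −0.15, and Atf4, its transcription factor, differed by −0.47 (adjusted p = 0.103). Of the 16 heat shock genes 1 was below 0, with a median of 0.14 and Bag3, a co-chaperone, at 0.32 (adjusted p = 0.26). The 25 acute phase genes had a median of −0.13, which became 0.06 after a 75th percentile shift.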
